A study of Mus musculus with 9 samples.

Results

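The Dlx homeobox family holds the 6 genes Dlx1, Dlx2, Dlx3, Dlx4, Dlx5 and Dlx6, vertebrate relatives of the Drosophila gene Distal-less. All probe sets that the array's platform annotation gives to 1 of these symbols alone were taken, which gave 8 of the 45101 probe sets on the array: 2 each for Dlx3 and Dlx4 and 1 each for the others. They were measured on 9 Affymetrix mouse arrays from embryos at embryonic day 16.5, with 3 arrays each for the condyle and the fossa of the temporomandibular joint and for the whole body. The condyle is the head of the lower jaw, the fossa is the socket on the skull that receives it, and the whole body was the comparison tissue. All 9 samples carry the same entry for treatment, laser capture of fresh frozen tissue. The series describes them as biological triplicates, and the strain, the genotype and which embryo gave which sample are not given in the sources used here. The p-values therefore measure the spread between these samples.

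Dlx proteins are transcription factors that bind DNA through a homeodomain. In mouse the genes lie in 3 convergently transcribed pairs, Dlx1 with Dlx2, Dlx3 with Dlx4, and Dlx5 with Dlx6. In the first pharyngeal arch, from which both jaws form, Dlx1 and Dlx2 are active in the upper and the lower part, Dlx5 and Dlx6 in the lower part, and Dlx3 and Dlx4 in its most distal cells. Mouse embryos that lack both Dlx5 and Dlx6 form upper jaw structures in place of the lower jaw. Dlx5 also acts in osteoblasts and chondrocytes, Dlx3 in skin, hair and teeth, and Dlx1, Dlx2, Dlx5 and Dlx6 in GABA neurons of the forebrain.

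The highest log2 intensity among the Bacillus subtilis controls of an array served as its background limit. A gene that did not exceed the limits of any of a group's 3 arrays is called at background there. The limits were 2.87 to 2.94 in condyle, 2.89 to 3.52 in fossa, and 3.09 to 3.36 for the whole body. Fossa array 1 had the highest limit and the lowest share of probe sets above it, 30.3%, while the other 8 arrays had 37.4% to 46.9%. The 3 prime minus 5 prime log2 difference of the Gapdh control, a sign of RNA integrity, was 5.33 to 6.86 in condyle, 3.69 to 5.31 in fossa, and 5.34 to 6.52 for the whole body. The log2 intensity of an 18S ribosomal RNA control was 5.90 to 9.66 in condyle and 7.30 to 9.75 in fossa, against 14.27 to 14.42 in whole body. In each comparison with whole body, tissue and whatever set this control apart cannot be told apart. The mean log2 intensity of 11 cartilage genes was 8.58 to 9.56 on the condyle arrays and 8.19 to 9.88 on the fossa arrays, above 5.33 to 5.66 in whole body. The mean of 7 bone genes was 7.84 to 10.17 in condyle and 8.51 to 10.29 in fossa, against 6.50 to 6.70 in whole body. The joint arrays also carried other tissues. The mean of 15 epithelial genes was 8.32 to 9.53 in condyle and 5.30 to 9.19 in fossa, with fossa array 2 at the low end, against 7.61 to 7.80 in whole body. The mean of 12 neuron genes was 4.51 to 7.35 in condyle and 4.79 to 7.19 in fossa, against 6.01 to 6.20 in whole body. Condyle array 2 and fossa array 1 had the lowest neuron means. The mean of 12 skeletal muscle genes was 4.91 to 6.89 in condyle and 5.49 to 7.14 in fossa, against 7.37 to 7.57 in whole body, and that of 9 blood and endothelium genes was 3.70 to 4.33 in condyle and 2.97 to 4.08 in fossa, against 5.46 to 5.66 in whole body.

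**Figure D1:**
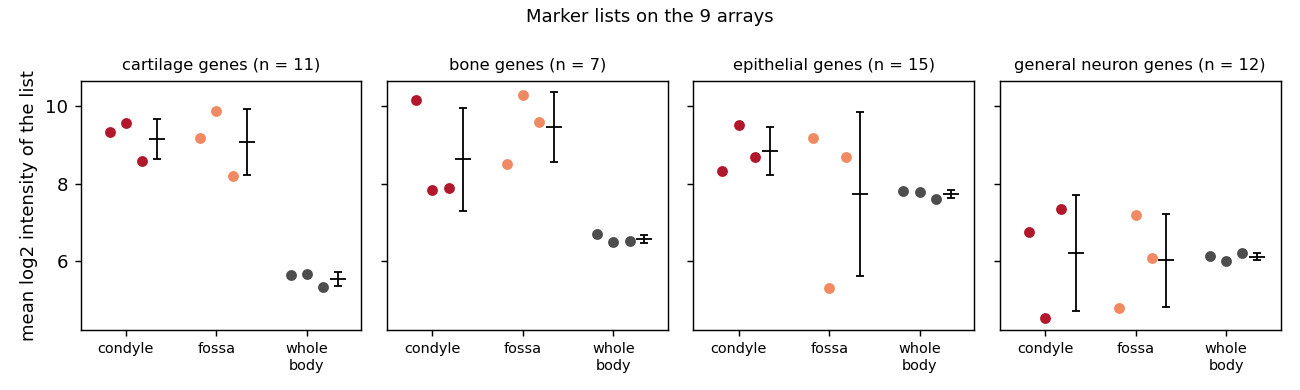
Mean log2 intensity of 4 marker gene lists on each array of condyle, fossa and whole body (points), with the mean and SD of 3 arrays beside them. The cartilage and bone means of all joint arrays lie above the whole body arrays, and the epithelial and neuron means vary most among the joint arrays, from 5.30 on fossa array 2 to 9.53 on condyle array 2 for the epithelial list.

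The bases upstream of the start site of Dlx2, the member that fell in fossa, and of Dlx6os1, the long noncoding RNA gene of the Dlx5 and Dlx6 pair are given to show what precedes these genes. They come from RefSeq, build GRCm38.p6, whose table used here gave a promoter window for 2 of the 6 Dlx coding genes, Dlx1 and Dlx2. Each sequence is the 250 bases before the annotated start, read 5′ to 3′ on the gene's own strand, which is the minus strand for both. Dlx2 covers chr2:71546755-71547004 and Dlx6os1 chr6:6869534-6869783.
Dlx2: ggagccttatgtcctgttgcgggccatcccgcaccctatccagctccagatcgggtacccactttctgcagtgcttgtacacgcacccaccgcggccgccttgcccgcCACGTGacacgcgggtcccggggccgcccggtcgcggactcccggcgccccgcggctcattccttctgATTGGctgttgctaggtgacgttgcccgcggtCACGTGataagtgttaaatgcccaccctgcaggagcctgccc
Dlx6os1: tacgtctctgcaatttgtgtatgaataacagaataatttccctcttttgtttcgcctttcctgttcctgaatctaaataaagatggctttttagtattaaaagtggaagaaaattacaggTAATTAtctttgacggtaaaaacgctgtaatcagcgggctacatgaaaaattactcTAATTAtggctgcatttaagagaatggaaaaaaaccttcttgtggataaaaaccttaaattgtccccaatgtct
In Dlx2 the capitals mark 2 copies of CACGTG, an E-box, and 1 copy of CCAAT, here as its reverse complement ATTGG. In Dlx6os1, for which the table holds 2 windows, they mark 2 copies of TAATTA, the core sequence that Dlx and many other homeodomain proteins bind. The GC box GGGCGG, also searched, had 1 match in Dlx2 and CCAAT had 1 in Dlx6os1, both left in lower case. The other Dlx6os1 window, not printed, held 1 copy of TAATTA and none of the other motifs. Both strands were searched, and the marked copies do not overlap. Of 32851 such windows in the table, 6.02% held CACGTG, 33.8% held CCAAT, 32.7% held GGGCGG and 4.84% held TAATTA. The Dlx1 window held none of these 4 motifs, and the Dlx2 window held no TAATTA. These are matches of letters in a window, and binding was not measured.

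Of the 8 Dlx probe sets, 4 lay above the background limit on 3 or more arrays: those of Dlx1 (9 arrays), Dlx2 (8 arrays) and Dlx5 (5 arrays), and 1 of Dlx3 (7 arrays). The moderated F test of limma asked for any difference among the 3 tissues over all 45037 probe sets other than controls. It called Dlx5 (adjusted p = 0.0027), Dlx2 (adjusted p = 0.00438) and Dlx1 (adjusted p = 0.00904), 3 of the 8, where 21.1% of all probe sets were called. The brighter Dlx3 probe set had an adjusted p = 0.116. These are bulk samples, in which fewer cells of a type and less RNA per cell cannot be told apart.

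**Figure D2:**
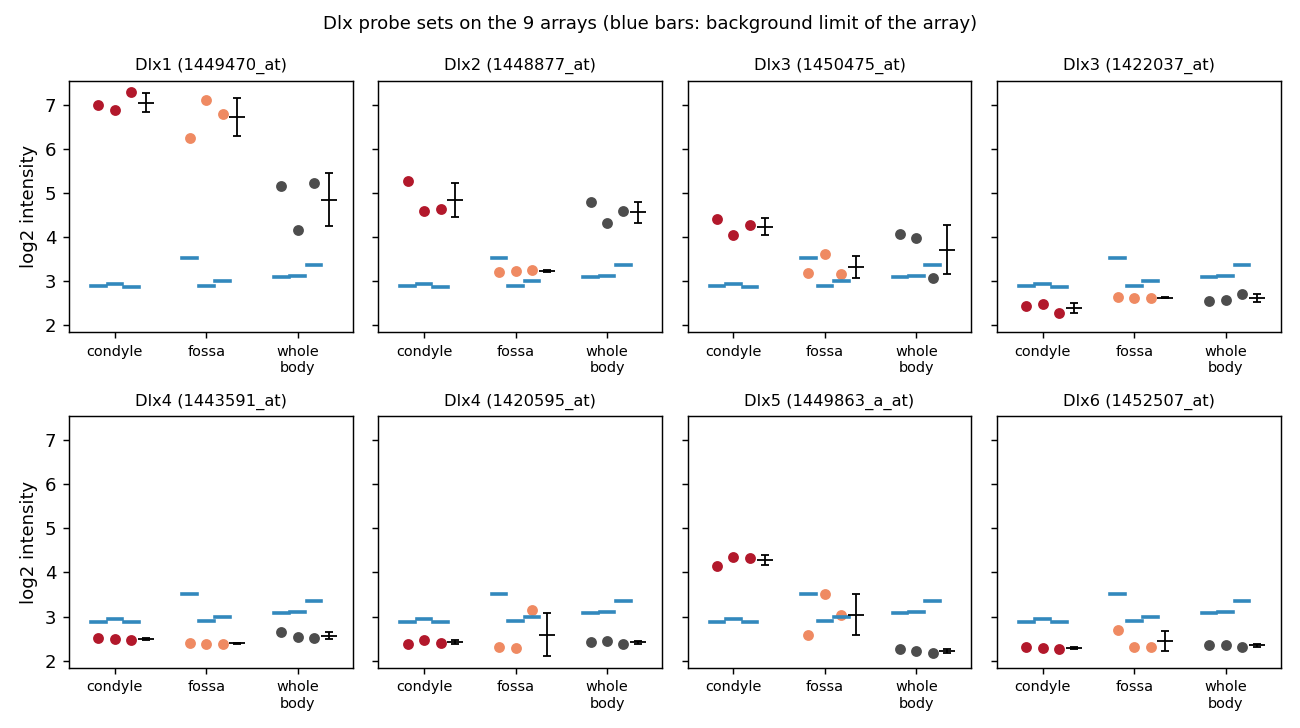
Log2 intensity of the 8 Dlx probe sets on each array of condyle, fossa and whole body (points), with the mean and SD of 3 arrays beside them and the background limit of each array as a blue bar. Dlx1 was high in both joint tissues, Dlx2 low in fossa, Dlx5 highest in condyle, and both Dlx4 probe sets, Dlx6 and the second Dlx3 probe set lay at or near the limits.

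Dlx1, of the pair active in both parts of the arch, rose in both joint tissues. Its log2 intensity was 6.99, 6.88 and 7.28 on the condyle arrays and 6.25, 7.10 and 6.79 on the fossa arrays, against 5.15, 4.15 and 5.23 in whole body. All joint arrays lay above all whole body arrays, and condyle and fossa overlapped. The log2 difference was 2.20 ± 0.34 (SE) for condyle minus whole body (limma adjusted p = 0.0138), a 4.61-fold rise. It was 1.87 ± 0.34 for fossa minus whole body (adjusted p = 0.0113), a 3.66-fold rise, the 264th highest difference among the 45037 probe sets. Without condyle array 3 the first of these had an adjusted p = 0.0504 and a difference of 2.09. Condyle and fossa differed by 0.33, with a 95% interval from -0.46 to 1.13 (adjusted p = 0.554).

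The 2 joint arrays with the lowest Dlx1 value in their groups, condyle array 2 and fossa array 1, were also those with the lowest neuron means, 4.51 and 4.79. Within each tissue, whole body included, the 3 arrays had the same order by Dlx1 value as by neuron mean. From the lowest to the highest Dlx1 value, the neuron means were 4.51, 6.74 and 7.35 in condyle and 4.79, 6.07 and 7.19 in fossa. In whole body they were 6.01, 6.14 and 6.20. Condyle array 2 had a neuron mean below every whole body array and a Dlx1 value of 6.88, above the highest whole body value of 5.23. Dlx1 and Dlx2 mark GABA neurons, so the genes of that cell type were measured as well. Of 8 GABA neuron genes measured from 12 listed, 2 were at background in condyle, 3 in fossa, and 2 for the whole body. The mean of the list was 3.46 to 4.66 in condyle and 3.53 to 4.46 in fossa, against 3.47 to 3.53 in whole body. Gad1, which encodes a GABA synthesising enzyme, was above the limit on all 9 arrays, at 7.20, 5.97 and 7.58 in condyle and 6.22, 7.52 and 7.68 in fossa, against 5.79, 6.49 and 6.64 in whole body. The other Gad1 probe set was at background on all 9 arrays, between 2.36 and 2.47. Nkx2-1, which specifies part of these neurons, was at background on all 9 arrays. The part of nerve tissue in the Dlx1 result was not tested beyond these values.

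Dlx2, the genomic partner of Dlx1, did not follow it. Its log2 intensity was 5.28, 4.58 and 4.64 in condyle and 3.21, 3.23 and 3.25 in fossa, against 4.78, 4.31 and 4.60 in whole body. All 3 fossa arrays lay below the other 6, and condyle and whole body overlapped. Fossa array 1 was under its limit of 3.52 and the other 2 fossa arrays were above theirs, of 2.89 and 3.00. Dlx2 was higher in condyle than in fossa, by a difference of 1.60 ± 0.20 (limma adjusted p = 0.00363). The fossa mean of 3.23 includes 1 array under its limit, so no fold is given. This call held under 17 of 17 alternatives, with differences as low as 1.09 (adjusted p up to 0.0326). Dlx2 was lower in fossa than in whole body by a difference of -1.33 ± 0.20 (adjusted p = 0.0058). The second call was lost with a common floor for dim values, at -1.04 (adjusted p = 0.054). Condyle and whole body differed by 0.27, with a 95% interval from -0.20 to 0.74 (adjusted p = 0.374).

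The unequal change within the pair was measured on each array as the Dlx1 minus the Dlx2 log2 value. The size of this value depends on the 2 probe sets, so only its change between tissues has a meaning. It was 1.71, 2.29 and 2.63 in condyle and 3.03, 3.88 and 3.54 in fossa, against 0.37, -0.15 and 0.63 in whole body. No 2 tissues overlapped. The mean differed by 1.93 between condyle and whole body, by 3.20 between fossa and whole body and by -1.27 for condyle minus fossa. Each of these 3 comparisons had an exact two-sided permutation p = 0.1, the smallest that 3 arrays against 3 allow. Dlx2 in fossa was near background, at 3.21, 3.23 and 3.25 against limits of 3.52, 2.89 and 3.00, so the comparisons with fossa are limited by it. Both partners cannot be compared in this way for Dlx5 and Dlx6 or for Dlx3 and Dlx4, because Dlx6 and Dlx4 were at or near background.

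**Figure D3:**
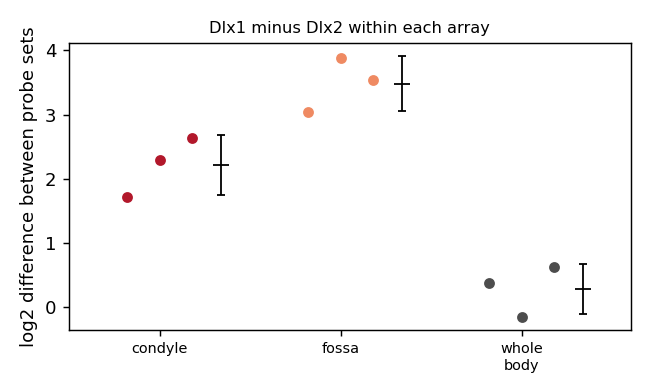
Dlx1 minus Dlx2 log2 value on each array of condyle, fossa and whole body (points), with the mean and SD of 3 arrays beside them. The fossa arrays lie at 3.03 to 3.88, the condyle arrays at 1.71 to 2.63 and the whole body arrays at -0.15 to 0.63. Dlx2 in fossa was near the background limits.

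Dlx5, of the lower jaw pair and a regulator of bone and cartilage cells, was highest in condyle. Its log2 intensity was 4.14, 4.34 and 4.33 in condyle and 2.59, 3.51 and 3.04 in fossa, against 2.26, 2.23 and 2.17 in whole body. The 3 tissues did not overlap. Dlx5 was above the limit on all 3 condyle arrays, on 2 of 3 fossa arrays and on 0 of 3 whole body arrays. It was at least 2.12-fold higher in condyle than in whole body (limma adjusted p = 0.00355), where the bound is the condyle mean over the mean of the whole body limits. It was also higher in condyle than in fossa (adjusted p = 0.0108). The difference as fitted was 1.23 ± 0.21, but it rests on a fossa mean of 3.04 with 1 of 3 arrays below its limit, so no fold is given. With all values under a common floor of 3.52 raised to it, the condyle minus fossa difference of Dlx5 was 0.75 (limma adjusted p = 0.00323). All fossa and whole body values of Dlx5 lay under this floor, so the floor removed their spread. That adjusted p therefore adds no support to the call. After quantile normalization it was 0.87 (adjusted p = 0.0742).

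Fossa minus whole body also passed for Dlx5, at 0.82 ± 0.21 (adjusted p = 0.0391), but no fold is given, because the fossa mean lay under the whole body limits. This call was lost under 10 of 17 alternatives. They included leaving out any 1 condyle array (adjusted p = 0.0618 to 0.0633), fossa array 3 (0.103) or any 1 whole body array (0.0821 to 0.0952), the fit of these 2 tissues alone (0.0986) and the replicate number as a block (0.0548). With a common floor the difference was 0.

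Dlx6, the partner of Dlx5, had 1 probe set, which was at background on all 9 arrays, with values of 2.26 to 2.31 in condyle and 2.32 to 2.70 in fossa, against 2.32 to 2.36 in whole body. The noncoding RNA of the pair, Dlx6os1, whose upstream bases are printed above, was above the limit on 3 of 3 condyle arrays and 1 of 3 fossa arrays, against 0 of 3 whole body arrays. Its values were 3.56, 3.19 and 3.71 in condyle and 2.84, 3.78 and 2.91 in fossa, against 2.98, 2.59 and 3.19 in whole body. Fossa array 2 held the highest value, and Dlx6os1 did not pass limma's F test (adjusted p = 0.337). A second noncoding RNA of the pair, Dlx6os2, was at background on all 9 arrays. Dlx1as, which is transcribed on the strand opposite to Dlx1 and overlaps it, was above the limit on all 9 arrays. Its values were 4.84, 4.80 and 5.93 in condyle and 4.76, 6.32 and 4.61 in fossa, against 4.81, 4.74 and 4.84 in whole body. The difference of Dlx1as was 0.39 for condyle minus whole body (adjusted p = 0.587) and 0.43 for fossa minus whole body (adjusted p = 0.595), so the rise called for Dlx1 was not called for its antisense partner.

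Dlx3, which acts in skin and teeth, was above the limit by 1 of its 2 probe sets. That probe set had values of 4.40, 4.04 and 4.27 in condyle and 3.18, 3.62 and 3.17 in fossa, against 4.08, 3.98 and 3.07 in whole body. All condyle arrays lay above all fossa arrays, and whole body overlapped with fossa and with condyle. Condyle minus fossa was 0.91 ± 0.28, with a 95% interval from 0.25 to 1.58, and did not pass (limma adjusted p = 0.0715). It passed without whole body array 3 (adjusted p = 0.0147) and in the fit of the 2 joint tissues alone (adjusted p = 0.0258), with the same difference. Condyle minus whole body was 0.53 (adjusted p = 0.273) and fossa minus whole body was -0.39 (adjusted p = 0.392). Without whole body array 3 the fossa difference passed, at -0.70 (adjusted p = 0.0441). Fossa array 2, with an epithelial mean of 5.30, had the highest Dlx3 value of the fossa, and condyle array 2, with 9.53, the lowest of the condyle. The part of epithelium in the Dlx3 values was not tested. The second Dlx3 probe set was at background on all 9 arrays, between 2.27 and 2.71.

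Dlx4, the partner of Dlx3, had 2 probe sets. The first was at background on all 9 arrays, between 2.38 and 2.66. It passed for fossa minus whole body (adjusted p = 0.043), at -0.18, a difference between 2 groups at background for which no fold is given. That call was lost under 12 of the 16 alternatives that kept the probe set (adjusted p up to 0.427), among them leaving out any 1 condyle array, any 1 fossa array or whole body array 2. The second was at background on 8 arrays, between 2.29 and 2.46. It lay above the limit on fossa array 3 alone, at 3.15 against a limit of 3.00. The noncoding Dlx4os was at background on all 9 arrays.

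Counted over the family, 2 of 8 probe sets passed for condyle minus whole body, Dlx1 and Dlx5, both higher, where 6.19% of all probe sets were called, 4.21% higher and 1.99% lower. For fossa minus whole body 4 of 8 passed, against 16.8% of all. Dlx1 and Dlx5 were higher, where 3.69% of all probe sets were, and Dlx2 and the Dlx4 probe set at background were lower, where 13.1% were. The Dlx1 call held under 17 of 17 alternatives and the Dlx2 call under 16, while those of Dlx5 and Dlx4 were lost under most. For condyle minus fossa 2 of 8 passed, Dlx2 and Dlx5, both higher, where 16.0% of all probe sets were called, 12.0% higher and 4.02% lower. The arrays of the tissues did not overlap for 5 of 8 Dlx probe sets in condyle minus whole body (2 higher, 3 lower), 4 of 8 in fossa minus whole body (2 higher, 2 lower) and 6 of 8 in condyle minus fossa (4 higher, 2 lower). Over all probe sets the shares were 55.8% (12.5% higher, 43.3% lower), 40.4% (10.8% higher, 29.5% lower) and 50.6% (27.0% higher, 23.6% lower). The median difference over all genes was -0.03 for condyle minus whole body, -0.11 for fossa minus whole body and 0.21 for condyle minus fossa. After quantile normalization the share of higher among all called probe sets was 47.6% against 68.0% for condyle minus whole body, 47.4% against 21.9% for fossa minus whole body, and 52.5% against 74.9% for condyle minus fossa. The 3 comparisons share arrays.

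**Figure D4:**
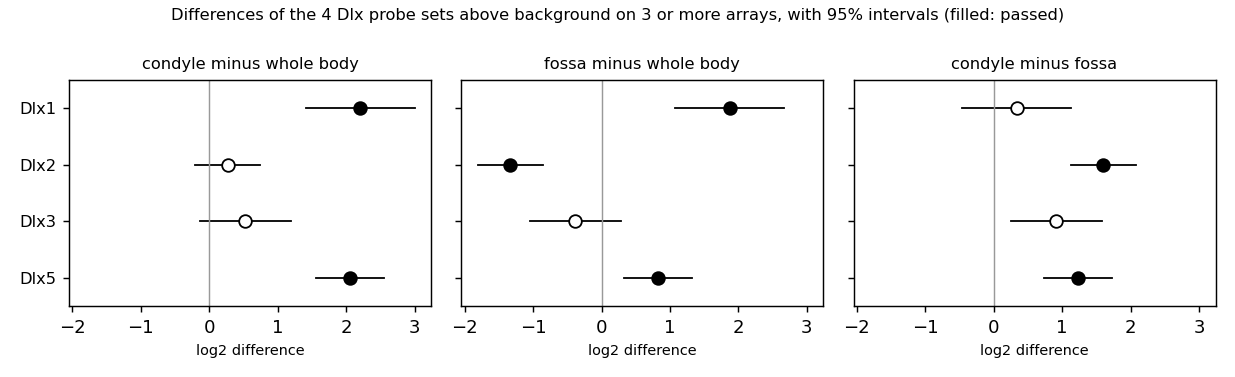
Log2 differences of the 4 Dlx probe sets above background on 3 or more arrays, with 95% intervals from limma, for the 3 comparisons. Filled points passed the adjusted threshold of 0.05, and open points did not. Dlx1 passed against whole body in both joint tissues, Dlx2 passed in both comparisons with fossa, Dlx5 in all 3, and Dlx3 in none. The Dlx5 points against whole body are differences from a group at background.

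The genes whose profiles were closest to each Dlx gene were found among 11505 named genes above the limit on 3 or more arrays. The measure was the root mean square difference of 2 log2 profiles over the 9 arrays after each was centred on its mean. Closest to Dlx1 were the zinc finger gene Zfp512 (0.22), the dynein heavy chain gene Dync1h1 (0.27) and Gpc4, which encodes a heparan sulfate proteoglycan (0.27). Zfp512 averaged 7.85 ± 0.40 in condyle, 7.38 ± 0.15 in fossa, and 5.67 ± 0.37 for the whole body (log2, SD, n = 3). Closest to Dlx2 were the membrane protein gene Myof (0.16), the DNA replication factor gene Rfc3 (0.18) and the centromere protein gene Cenpc1 (0.18). Rfc3 averaged 4.71 ± 0.21 in condyle, 2.97 ± 0.22 in fossa, and 4.43 ± 0.12 for the whole body. Closest to Dlx3 were Mpv17l2 (0.14), Znhit2 (0.15) and Rnf41 (0.16). Dlx5 was above the limit on 5 of the 9 arrays, so its profile on the other 4, and each distance or rank that uses it, is limited by background. Closest to Dlx5 as measured were the alanyl-tRNA synthetase gene Aars (0.12), Emc1, a subunit of a membrane protein complex of the endoplasmic reticulum (0.19), and Nucb1 (0.19). Aars averaged 8.38 ± 0.16 in condyle, 7.27 ± 0.33 in fossa, and 6.29 ± 0.08 for the whole body. The other Dlx genes were not among these. The Dlx profile closest to Dlx1 was that of Dlx5, at 0.55 and rank 224 of the candidates, and the one closest to Dlx2 was that of Dlx3, at 0.52 and rank 1820.

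In the arch, endothelin 1 signalling through its receptor and the G proteins Gnaq and Gna11 switches on Dlx5 and Dlx6, and Bmp4 and Fgf8 act further upstream. Of 13 genes measured from 14 listed as these regulators, 1 passed in each comparison. Over all genes, each by 1 probe set, 9.96% were called for condyle minus whole body (7.05% higher, 2.91% lower), 20.1% for fossa minus whole body (4.20% higher, 15.9% lower) and 19.0% for condyle minus fossa (16.2% higher, 2.82% lower). The genes of the ligands Edn1 and Fgf8 were at background on all 9 arrays. Gna11 had values of 8.51, 8.11 and 8.97 in condyle, against 7.46, 7.13 and 7.61 in whole body, with no overlap. Its difference was 1.13 ± 0.25 (limma adjusted p = 0.0491), a call lost under 12 of 17 alternatives, with adjusted p up to 0.131, among them leaving out condyle array 1 or 3, fossa array 2 or 3, or any 1 whole body array. Its other probe set differed by 0.30 (adjusted p = 0.69). Ednrb, an endothelin receptor gene, was lower in fossa, at 4.08, 4.89 and 3.97, against 5.96, 5.76 and 6.11 in whole body (difference -1.63, adjusted p = 0.0426). The Ednrb call was lost under 8 of 17 alternatives (adjusted p up to 0.136), among them leaving out condyle array 1, fossa array 1 or 3, or any 1 whole body array. The other 2 Ednrb probe sets were at background. Bmp4 was above the limit on 3 of 3 condyle arrays, at 3.50, 4.24 and 3.09, and on 0 of 3 fossa arrays, at 2.37, 2.65 and 2.66. It was at least 1.39-fold higher in condyle (adjusted p = 0.0402), a call lost under 10 of 17 alternatives. Leaving out condyle array 1 (0.0905), any 1 fossa array (0.0801 to 0.111) or any 1 whole body array (0.0587 to 0.0654) was enough to lose the Bmp4 call.

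Several lower jaw genes depend on Dlx5 and Dlx6 in the mouse arch. Of 6 measured from 7 listed, 0 passed for condyle minus whole body (2 at an unadjusted p under 0.05, Hand2 and Gsc), 1 was lower for fossa minus whole body and 1 was higher for condyle minus fossa. Over all genes 9.96% were called in the first comparison, 15.9% were lower in the second and 16.2% were higher in the third. Gsc, the homeobox gene goosecoid, had values of 5.08, 5.59 and 5.28 in condyle, against 2.75, 2.77 and 3.03 in fossa, where 1 of 3 arrays was above the limit. The 2 joint tissues did not overlap. Gsc passed for condyle minus fossa (limma adjusted p = 0.029). The difference as fitted was 2.47 ± 0.57, and 1.80 with the common floor, where the call was lost (adjusted p = 0.0681). It was also lost with the replicate number as a block (0.0686), after quantile normalization (0.11) and on leaving out any 1 of the 6 joint arrays (0.0707 to 0.0874). In whole body Gsc was 4.88 on array 1 and at background on the other 2, at 2.58 and 2.81. Condyle minus whole body was 1.89 for Gsc (adjusted p = 0.11), and 2.62 without whole body array 1 (adjusted p = 0.00206). Hand2, a transcription factor gene of the distal arch, heart and limbs, was 3.50, 3.33 and 3.79 in fossa, against 4.24, 5.88 and 5.45 in whole body. Its difference was -1.65 ± 0.39 (adjusted p = 0.0294), a call lost under 10 of 17 alternatives (adjusted p up to 0.11), among them leaving out condyle array 1 or 2, any 1 fossa array, or whole body array 2 or 3. In condyle Hand2 was 3.78, 3.77 and 3.83, a difference of -1.40 from whole body (adjusted p = 0.0888), and -1.87 without whole body array 1 (adjusted p = 0.00603). The 2 other Hand2 probe sets and Alx4 were at background on all 9 arrays. Of 4 upper jaw genes, Foxl2 alone passed in any comparison, at background on all 9 arrays. Pou3f3, an upper jaw gene that Dlx5 and Dlx6 hold down in the mouse arch, had values of 6.55, 6.05 and 8.50 in condyle, against 5.25, 5.17 and 5.62 in whole body (difference 1.69, adjusted p = 0.229).

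**Figure D5:**
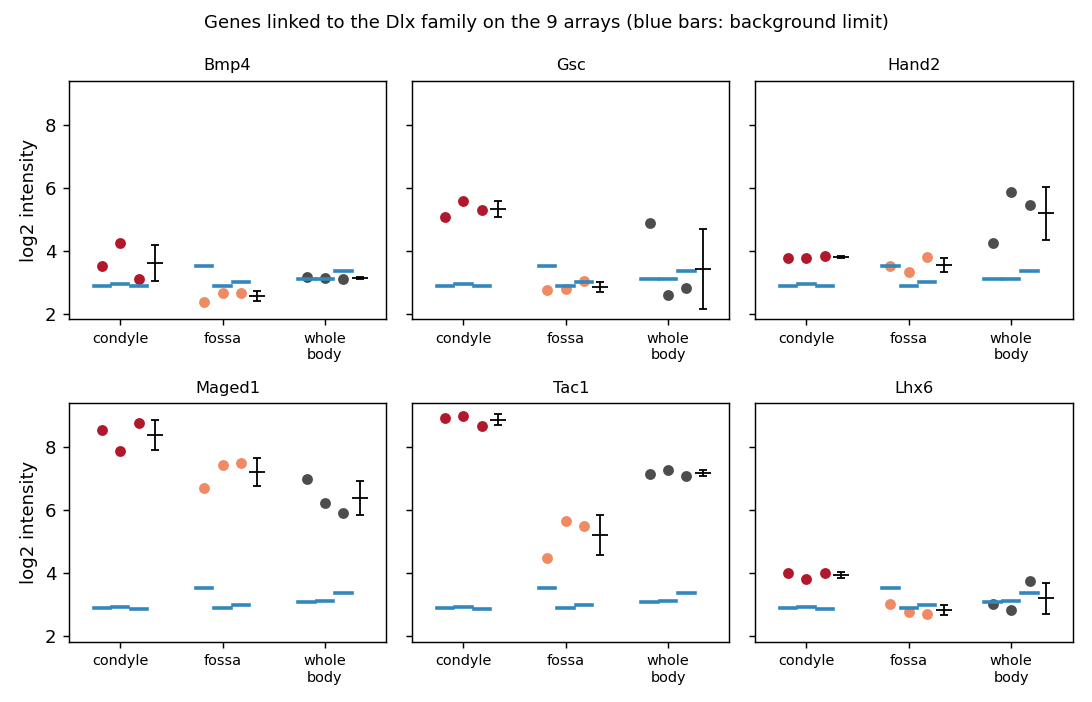
Log2 intensity of 6 genes linked to the Dlx family on each array of condyle, fossa and whole body (points), with the mean and SD of 3 arrays beside them and the background limit of each array as a blue bar. Bmp4, Gsc, Maged1, Tac1 and Lhx6 show 3 condyle arrays above 3 fossa arrays, and Hand2 was highest in whole body. The 6 genes were picked from those that passed in a comparison. Bmp4, Gsc, Tac1 and Lhx6 passed for condyle minus fossa, so their separation restates those calls. Over all probe sets, 27.0% had all condyle arrays above all fossa arrays.

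Dlx5 and Dlx3 are known to switch on genes of bone cells. Of 10 such genes listed 5 were measured, and 0 passed in each of the 3 comparisons in limma. Over all genes 9.96% were called for condyle minus whole body, 20.1% for fossa minus whole body and 19.0% for condyle minus fossa. At an unadjusted p under 0.05 there was 1 of the 5 for condyle minus whole body, Sp7, 1 for fossa minus whole body, Ibsp, and 0 for condyle minus fossa. Sp7, a transcription factor gene needed for osteoblasts, was 5.73, 4.90 and 5.63 in condyle and 3.68, 5.91 and 4.66 in fossa, against 3.24, 4.01 and 3.90 in whole body. Condyle lay above whole body for Sp7, and fossa overlapped with both. The difference was 1.70 ± 0.56 for condyle minus whole body (adjusted p = 0.135) and 1.04 ± 0.56 for fossa minus whole body (adjusted p = 0.256). Ibsp, a bone matrix gene, was 12.49, 9.67 and 10.03 in condyle and 10.39, 13.46 and 12.27 in fossa, against 9.52, 9.71 and 9.34 in whole body. Its difference was 2.52 ± 0.96 for fossa minus whole body (adjusted p = 0.125). In the separate list of bone genes, 7 were measured and more calls were made. There 1 was higher in condyle than in whole body (Wif1), 4 were higher in fossa than in whole body (Dmp1, Col1a1, Col1a2 and Mepe) and 1 was lower in condyle than in fossa (Mepe), named here after their values were seen. Over all genes the shares in these directions were 7.05%, 4.20% and 2.82%. For fossa minus whole body the other probe sets of Col1a1 (limma adjusted p = 0.0728) and Col1a2 (0.0927 and 0.226) did not pass. Of the other Dmp1 probe sets, 1 passed (0.0395) and 1 did not (0.132). Col10a1 and Ihh, genes of maturing chondrocytes, were at background in all 3 tissues.

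Msx proteins compete with Dlx proteins for the same sites, and Maged1 and Ndn bind Dlx proteins. Of 8 genes of this kind, 1 was higher in condyle than in whole body, 1 was lower in fossa than in whole body and 1 was higher in condyle than in fossa. Over all genes the shares in these directions were 7.05%, 15.9% and 16.2%, so counts of 1 in 8 do not set this list apart. Maged1 had values of 8.54, 7.87 and 8.78 in condyle, against 6.99, 6.24 and 5.93 in whole body, with no overlap. The difference was 2.01 ± 0.37 (limma adjusted p = 0.025), a call lost under 8 of 17 alternatives (adjusted p up to 0.0842). Condyle arrays 1 and 3 and whole body arrays 2 and 3 were each needed for the Maged1 call. Smad4, the shared mediator of BMP and TGF-beta signals, was 9.11, 9.30 and 9.11 in fossa, against 10.32, 9.93 and 10.45 in whole body, a difference of -1.06 ± 0.13 (adjusted p = 0.00274), and -0.49 after quantile normalization (adjusted p = 0.0446). Smad4 was also lower in fossa than in condyle, where it had 9.87, 9.87 and 9.95, by 0.72 (adjusted p = 0.013), of which quantile normalization left 0.07 (adjusted p = 0.818). The other 2 Smad4 probe sets did not pass. Msx1 was above the limit on 1 array of each tissue, and Msx2 on 1 of 9 arrays, fossa array 2.

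The genes that flank the 3 Dlx pairs were measured beside them. Of 16 genes measured from 17 listed, 2 were higher and 0 lower for condyle minus whole body, 1 was higher and 7 lower for fossa minus whole body, and 8 were higher and 0 lower for condyle minus fossa, with a median difference of 0.66 in the last against 0.21 over all genes. The shares called over all genes were 7.05% higher and 2.91% lower, 4.20% higher and 15.9% lower, and 16.2% higher and 2.82% lower. Tac1, a neuropeptide gene near Dlx5 and Dlx6, had the largest differences of the list. Its values were 8.94, 9.01 and 8.68 in condyle, against 4.47, 5.65 and 5.49 in fossa, a 12.8-fold difference (limma adjusted p = 0.000748). In whole body Tac1 was 7.16, 7.28 and 7.10, between the joint tissues. The other Tac1 probe set was at background on all 9 arrays. Slc25a12, a mitochondrial carrier gene near Dlx1 and Dlx2, was 7.51, 7.22 and 7.42 in condyle, against 5.39, 6.19 and 5.96 in fossa (difference 1.53 ± 0.24, adjusted p = 0.00774), while its 2 other probe sets did not pass. The integrin gene Itga3 near Dlx3 and Dlx4 (1.21) and the asparagine synthetase gene Asns near Dlx5 and Dlx6 (1.20) were also higher in condyle than in fossa. Quantile normalization left 0.48 for Itga3 (adjusted p = 0.429) and 0.55 for Asns (adjusted p = 0.233). The Itga3 call was also lost without condyle array 2 or without fossa array 1 or 2 (adjusted p = 0.0557 to 0.0579). Against whole body, Hat1, a histone acetyltransferase gene near Dlx1 and Dlx2, was lower in fossa by a difference of -1.36 (adjusted p = 0.0155) and Pdk1, a kinase gene of the same region, by -1.04 (adjusted p = 0.0146). Both calls were lost after quantile normalization, at -1.02 for Hat1 (adjusted p = 0.0584) and -0.48 for Pdk1 (adjusted p = 0.145), and with the common floor (0.0582 and 0.0546). The 3 other Pdk1 probe sets did not pass. Kat7, a histone acetyltransferase gene near Dlx3 and Dlx4, was 5.37, 5.41 and 5.37 in condyle, against 4.35, 4.33 and 4.17 in whole body (difference 1.10 ± 0.09, adjusted p = 0.00136), and after quantile normalization 0.66 (adjusted p = 0.0808). Kat7 was also the 1 neighbour called higher in fossa than in whole body, by 0.32 (adjusted p = 0.045), named here after its values were seen. Its 2 other probe sets did not pass.

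Of the 8 GABA neuron genes 1 passed, in condyle minus fossa, where 16.2% of all genes were called higher. This was Lhx6, which also marks first arch mesenchyme. It averaged 3.94 ± 0.11 in condyle (log2, SD, n = 3), against 3.00, 2.77 and 2.69 in fossa, where it was at background. The other Lhx6 probe set was at background on all 9 arrays. Lhx6 was at least 1.74-fold higher in condyle (limma adjusted p = 0.0208), a call lost under 6 of 17 alternatives, among them leaving out any 1 condyle array (adjusted p = 0.0506 to 0.0678), fossa array 2 (0.057) or fossa array 3 (0.0679). Of the 15 epithelial genes, 0 passed for condyle minus whole body (2 at an unadjusted p under 0.05, Krt5 and Krt18), 2 were lower in fossa than in whole body and 1 was higher in condyle than in fossa. Among all genes the matching shares were 9.96% called, 15.9% lower and 16.2% higher. Epcam, an adhesion gene of simple epithelia, was 3.81, 3.69 and 3.77 in fossa, against 5.14, 5.16 and 5.10 in whole body (difference -1.38 ± 0.12, adjusted p = 0.000795), while its second probe set differed by 0.32 (adjusted p = 0.736). Krt5, a keratin of basal epidermis, was 9.85, 11.15 and 11.38 in condyle and 10.34, 5.36 and 10.45 in fossa, against 6.44, 6.88 and 6.12 in whole body. Krt18, a keratin of simple epithelia, was lower in fossa, at 5.54, 3.53 and 5.79, against 7.43, 7.33 and 7.64 in whole body (difference -2.52, adjusted p = 0.0262, a call lost under 7 of 17 alternatives, among them leaving out any 1 whole body array). The Krt5 difference of 4.31 for condyle minus whole body did not pass (adjusted p = 0.117), and it passed without fossa array 2 (adjusted p = 0.0066).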

How the data were processed

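Total RNA of laser-captured tissue was hybridised to Affymetrix whole-genome mouse arrays, 1 sample an array. The deposited table holds 1 intensity per probe set and array on a linear scale, summarised by the authors. The submitters' processing notes name limma, while the sources used here do not state how probes were summarised and normalized. Values were taken as log2. Of 45101 probe sets, 64 array controls were left out. Symbols come from the platform annotation (34945 probe sets with 1 symbol, 932 with several, 9160 with none). A gene with several probe sets is represented by the one with the highest mean over the 9 arrays (18193 genes).

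Differences were fitted with limma 3.58.1 in R 4.3.3, in 1 fit of 3 groups on 9 arrays with 6 residual degrees of freedom. P-values were adjusted by Benjamini-Hochberg over all 45037 probe sets, with a threshold of 0.05. The number of arrays limits the precision. Each array's background limit is the highest of 27 Bacillus control probe sets. An "at least" fold sets the brighter group's mean against the dim group's mean limit. The fit was tested on simulated data with 200 changed probe sets. Members and gene lists (139 genes in 13 lists, 126 measured) were chosen with earlier results of these data known. Named from a list were up to 4 members past the threshold with the largest differences, or up to 2 where 0 passed, and 3 genes closest in profile to each Dlx gene. The alternatives were quantile normalization, centring on the median, a common floor at the highest limit, a filter on dim probe sets, 1 probe set a gene, a trended robust prior, the replicate number as a block, fits of 2 groups, and leaving out each array.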

Additional observations from a re-analysis of the deposited data

Results flagged for a closer look

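Dlx2 and Dlx5 were picked out because their differences from whole body differed between the joint tissues. That is the condyle minus fossa contrast itself, so its values restate the results above and add no further support. For Dlx2 the contrast was 1.60 ± 0.20 (SE, limma adjusted p = 0.00363, 3 of 3 condyle arrays above all fossa arrays), between 0.27 for condyle and -1.33 for fossa against whole body. For Dlx5 it was 1.23 ± 0.21 (adjusted p = 0.0108, 3 of 3 condyle arrays above all fossa arrays), and 0.75 with a common floor. Dlx5 was at background in whole body and under the limit on 1 of 3 fossa arrays, so its sizes against whole body are not set side by side here. Groups of 3 arrays are too small for a test of single outlying arrays.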

How the results depend on the processing

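The count of Dlx probe sets called for condyle minus whole body was 2, and 1 to 2 when single arrays were left out. For fossa minus whole body it was 4, and 1 with a common floor, 2 with the replicate block, 2 in the fit of these 2 groups alone, and 2 to 4 when single arrays were left out. For condyle minus fossa it was 2, and 4 in the fit of the 2 groups alone, and 2 to 3 when single arrays were left out. The F test called 3, and 5 with a trended and robust prior. Over all probe sets, condyle minus whole body gave 2790 calls, and 1765 after quantile normalization, 1522 with the floor, 1659 with the replicate block and 1520 to 3043 without single arrays. Fossa minus whole body gave 7583 calls, and 13352 after centring on the median, 2094 with the floor, 3559 with 1 probe set a gene, which tests fewer features, and 4796 to 7390 without single arrays. Condyle minus fossa gave 7206 calls, and 1765 with the floor, 3440 with 1 probe set a gene and 4319 to 8084 without single arrays.

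Signs turned after quantile normalization for Dlx1, condyle minus fossa (-0.39), Dlx2, condyle minus whole body (-0.14), and Sp7, condyle minus fossa (-0.029). Without fossa array 3 the second Dlx4 probe set turned: without single arrays it ranged from -0.11 to 0.32 for fossa minus whole body and from -0.31 to 0.12 for condyle minus fossa. Without condyle array 3 Calb2 turned for condyle minus whole body: without single arrays it ranged from -0.090 to 1.496. None of these 6 differences had passed. The Dlx1 minus Dlx2 differences kept their signs without single arrays, at 1.72 to 2.18, 2.99 to 3.43 and -1.49 to -1.02. The cause of these shifts was not tested.

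Same-numbered arrays of different tissues had correlations of -0.33 to 0.14 over 9 pairs, other pairs -0.14 to 0.40, and 4 of 9 arrays were closest to their own number. These values show no pairing by number, but with 3 arrays a group they cannot exclude it, so whether samples share an embryo stays unknown. Intensities near the background limit set what can be seen for Dlx4, Dlx6, Dlx2 in fossa and, in fossa and whole body, Dlx5.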
